A study of Mus musculus with 6 samples.

Results

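The complement genes that fibroblasts are known to make were followed on 6 arrays of immortalized mouse embryonic fibroblasts, cultured connective tissue cells known as MEFs. The 8 genes were chosen by symbol: C3, C4b, C1s, C1ra, Cfb, Serping1, Cd55 and Cd59a. Every probe set (a group of short array probes for a transcript) that the platform annotation gives to one of these symbols was taken, which made 12 of the 45101 probe sets in the table. Of the 8 genes, 6 had probe sets of their own, 9 in all. C4b was named only on a probe set shared with its paralog C4a, and C3 on none in the annotation used here, so no value is given for C3. The other shared probe sets pair C1ra with C1rb and Cd55 with Cd55b, and signal from either gene of such a pair cannot be told apart. C1s carries its current symbol, C1s1, in the annotation.

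All cells were PCAF-/- (gene Kat2b), with no wild-type PCAF cells among the groups. The labels give 3 arrays as PCAF-/-;GCN5-/- and 3 as PCAF-/-;GCN5+/-, GCN5 being the product of Kat2a. PCAF and GCN5 are related histone acetyltransferases, and the study asked which genes depend on them. Per the design text, a conditional GCN5 allele was recombined by a retrovirus carrying Cre, the comparison cells received the vector virus, and the cells were selected with puromycin. That text gives GCN5+/- after either virus, and no label says which virus an array's cells had, so the genotypes here are those of the array labels; virus and genotype cannot be told apart. For each genotype, line A gave a pair of duplicate RNAs (arrays A1 and A2) and line B, immortalized independently, gave array B. Part of the spread behind every p-value is thus technical, and each line is a single immortalized culture.

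Complement is a set of secreted proteases and the membrane proteins that hold them in check. In the classical pathway the proteases C1r and C1s, carried by C1q, cleave C4 and C2; factor B (Cfb) plays the matching part in the alternative pathway, and both routes cleave C3. The C1 inhibitor Serping1 blocks C1r and C1s, Cd55 speeds the decay of the C3-cleaving enzymes, and Cd59a keeps the membrane attack complex from forming. The liver makes most complement in plasma, while fibroblasts are known as a local source of several of these proteins.

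The arrays measured transcripts, so sequence around the gene start is shown for context, for some of the members that the RefSeq promoter table lists. Each stretch of 300 bases runs 5′ to 3′ on the gene's strand from upstream of the RefSeq start to just past it (GRCm38.p6), for the adjacent protease genes that differed the same way between the lines and for the membrane regulators that differed in opposite ways. Capitals mark matches to motifs of factors that act in the acute-phase and interferon responses.
C1ra, chr6:124512371-124512670, plus strand: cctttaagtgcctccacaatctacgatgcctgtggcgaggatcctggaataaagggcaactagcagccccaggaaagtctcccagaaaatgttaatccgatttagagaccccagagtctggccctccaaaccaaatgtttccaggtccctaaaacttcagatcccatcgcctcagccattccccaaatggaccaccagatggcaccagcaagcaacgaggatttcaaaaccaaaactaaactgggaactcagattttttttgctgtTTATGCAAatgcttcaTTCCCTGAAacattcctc
C1s1, second listed start, chr6:124542310-124542609, minus strand: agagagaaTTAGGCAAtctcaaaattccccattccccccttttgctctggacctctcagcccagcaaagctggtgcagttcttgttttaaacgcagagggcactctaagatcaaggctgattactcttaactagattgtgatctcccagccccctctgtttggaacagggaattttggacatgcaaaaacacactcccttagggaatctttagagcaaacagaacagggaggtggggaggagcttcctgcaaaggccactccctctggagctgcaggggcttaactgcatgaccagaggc
Cd55, chr1:130462695-130462994, minus strand: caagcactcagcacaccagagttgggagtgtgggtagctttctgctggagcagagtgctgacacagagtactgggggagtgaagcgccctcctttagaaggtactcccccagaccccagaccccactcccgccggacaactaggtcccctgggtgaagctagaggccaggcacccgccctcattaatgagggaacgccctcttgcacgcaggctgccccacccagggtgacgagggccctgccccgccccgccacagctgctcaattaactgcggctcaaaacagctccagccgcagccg
Cd59a, chr2:104095551-104095850, plus strand: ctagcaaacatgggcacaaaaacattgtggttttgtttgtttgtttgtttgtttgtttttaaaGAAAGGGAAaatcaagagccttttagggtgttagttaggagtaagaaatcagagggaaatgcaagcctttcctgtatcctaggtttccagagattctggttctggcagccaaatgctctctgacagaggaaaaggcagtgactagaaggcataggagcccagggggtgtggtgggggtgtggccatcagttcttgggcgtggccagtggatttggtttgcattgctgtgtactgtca
The motifs searched on both strands were GAAANNGAA (core of the interferon-stimulated response element), TTCNNNGAA (interferon-gamma activated site), GGGNNTTTC (NF-kB site core), TTGCNNAA (C/EBP site) and TATAAA (the core promoter box). The C1ra stretch held a C/EBP match, TTATGCAA on the other strand, and an activated-site match, TTCCCTGAA. Both lie past the RefSeq start, at bases 17 to 24 and 33 to 41, and not upstream of it. The C1s1 stretch held a C/EBP match, TTAGGCAA on the other strand, and the stretch at the other listed C1s1 start, chr6:124542272-124542571, held none. The Cd59a stretch held a response-element match, GAAAGGGAA. The Cd55 stretch held none of these letters. Of the 32851 promoters in the table, 10.8% held the C/EBP letters, 8.3% the activated-site letters, 8.56% the response-element core, 4.36% the NF-kB core and 13.6% the core promoter box, so such matches are common, and a match is a description and not a site. C4b, Cfb and Serping1 are named only. C3 is in that table too, but it has no named probe set here and its stretch is not shown.

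The lines differed in complement expression far more than the genotypes did, and the same held over all probe sets. Of all tested probe sets 23.1% were called by line and 8.51% by genotype. In line B the protease transcripts C1ra and C1s were 2.8-fold and 2.96-fold lower in signal than in line A, the decay-accelerating factor Cd55 differed by -1.95 to -2.89 on the log2 scale, and the C1 inhibitor Serping1 was 6.38-fold higher. Cd59a was higher in line B on both of its probe sets. The mean of 1429830_a_at lay below the level filter, and the 1418710_at call was lost with any of 4 arrays left out. Cfb gave no difference that passed the test. Between GCN5-/- and GCN5+/- cells none of the 12 probe sets passed the test across all probe sets, but C1ra did, at 0.35 higher in GCN5-/- cells, when arrays were matched by name (limma adjusted p = 0.0406). That matched fit called 2627 of the 27022 probe sets it tested, so 1 call among the 12 does not set the members apart. No other setting called a member by genotype. Since RNA was taken from whole cultures, fewer cells of a kind and less RNA per cell cannot be told apart.

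The labels were checked first. Kat2a on probe set 1422972_s_at had log2 signals of 7.97, 7.85 and 7.75 in GCN5-/- cells (A1, A2, B), against 9.31, 10.07 and 11.51 in GCN5+/- cells. It fell by 2.44 on the log2 scale with GCN5 loss (SE 0.37, limma adjusted p = 0.00864), and a further Kat2a probe set fell by 0.75 (SE 0.13, limma adjusted p = 0.0157; 0.0747 without GCN5-/- A2, 0.0537 without GCN5+/- A1). The remaining Kat2a probe set, 1426783_at, differed by 0.18 ± 0.16 (SE, limma adjusted p = 0.575). Its pairs were 0.56 and 0.38 in line A and -0.41 in line B, and within line A it was called higher in GCN5-/- cells (0.47, limma adjusted p = 0.0232), against the direction of the label. All 10 fibroblast markers passed the level filter on their mean, but Thy1 did so through line B (8.60 and 9.54), with 6.02 to 6.21 on the line A arrays. In line B 3 of these 10 markers rose and 5 fell relative to line A, and 4 were called by genotype. These markers thus differed between the lines along with the complement genes. Over all named genes tested 26.7% were called by line and 9.86% by genotype. Col1a1, Col1a2, Col3a1, Pdgfrb and Pdgfra were lower in GCN5-/- arrays in every pair, and Vim and S100a4 were higher. Thy1, Fn1 and Fbln1 had pairs in either direction. The log2 of the summed unlogged signals of all 10 fibroblast markers was 17.17 to 17.20 in GCN5-/- arrays and 17.18 to 17.33 in GCN5+/- arrays. It was 17.17 to 17.18 in line B and 17.17 to 17.33 in line A. Such a sum mostly follows the brightest markers. The part of the fibroblast markers in the complement differences was not tested. Of 7 hepatocyte markers with a probe set 4 (Ttr, Hnf4a, Apoa1 and Apob) passed the filter and Alb, Fga and Tat did not. Array medians lay between 7.40 and 7.45.

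C1ra encodes C1r, the protease that activates itself and then C1s. Its probe set 1417009_at had log2 signals of 11.30, 11.68 and 9.95 in GCN5-/- arrays A1, A2 and B, against 10.92, 11.30 and 9.68 in GCN5+/- arrays. Every GCN5-/- array stood above the GCN5+/- array of its own name, by 0.38, 0.39 and 0.27, but the groups overlapped because both line B arrays were low. Over all 6 arrays the genotype difference was 0.35 ± 0.13 (SE, 95% interval 0.04 to 0.65, limma adjusted p = 0.156). With the array name as a block in place of the line, the same difference passed the test (limma adjusted p = 0.0406), so the call depends on whether A1 belongs with A1 and A2 with A2. By genotype that block called 2627 of the 27022 tested probe sets, against 2299 with the line term. Line B averaged 9.82 and line A 11.30 ± 0.31 (SD, n = 4 arrays), a difference of -1.49 ± 0.14 (SE, limma adjusted p = 0.000254), or 2.8-fold lower in line B.

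The second protease, C1s, cleaves C4 and C2. Its probe set 1424041_s_at had log2 signals of 11.33, 11.62 and 9.85 in GCN5-/- arrays, against 11.54, 11.83 and 10.18 in GCN5+/- arrays. The pairs ran opposite to those of C1ra, at -0.22, -0.20 and -0.33, with a fitted difference of -0.25 ± 0.11 (SE, 95% interval -0.50 to 0.01, limma adjusted p = 0.219). Between the lines C1s ran the same way as C1ra: line B lay 1.57 below line A (-1.57 ± 0.12, SE, limma adjusted p = 7.38e-05), 2.96-fold lower, and no line B array reached the lowest line A array. The probe set shared by C1rb and C1ra was dimmer, with 7.16, 7.60 and 6.59 in GCN5-/- arrays and 7.05, 7.34 and 5.63 in GCN5+/- arrays. It too was lower in line B, by -1.18 ± 0.20 (SE, limma adjusted p = 0.00417), a call that was lost when the GCN5+/- array B was left out (-0.79, limma adjusted p = 0.0639); both line B values lie below the filter level of 6.80. In the RefSeq gene order of GRCm38.p6, C1ra and C1s1 are neighbours on chromosome 6, followed by C1rb and C1s2.

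**Figure D1:**
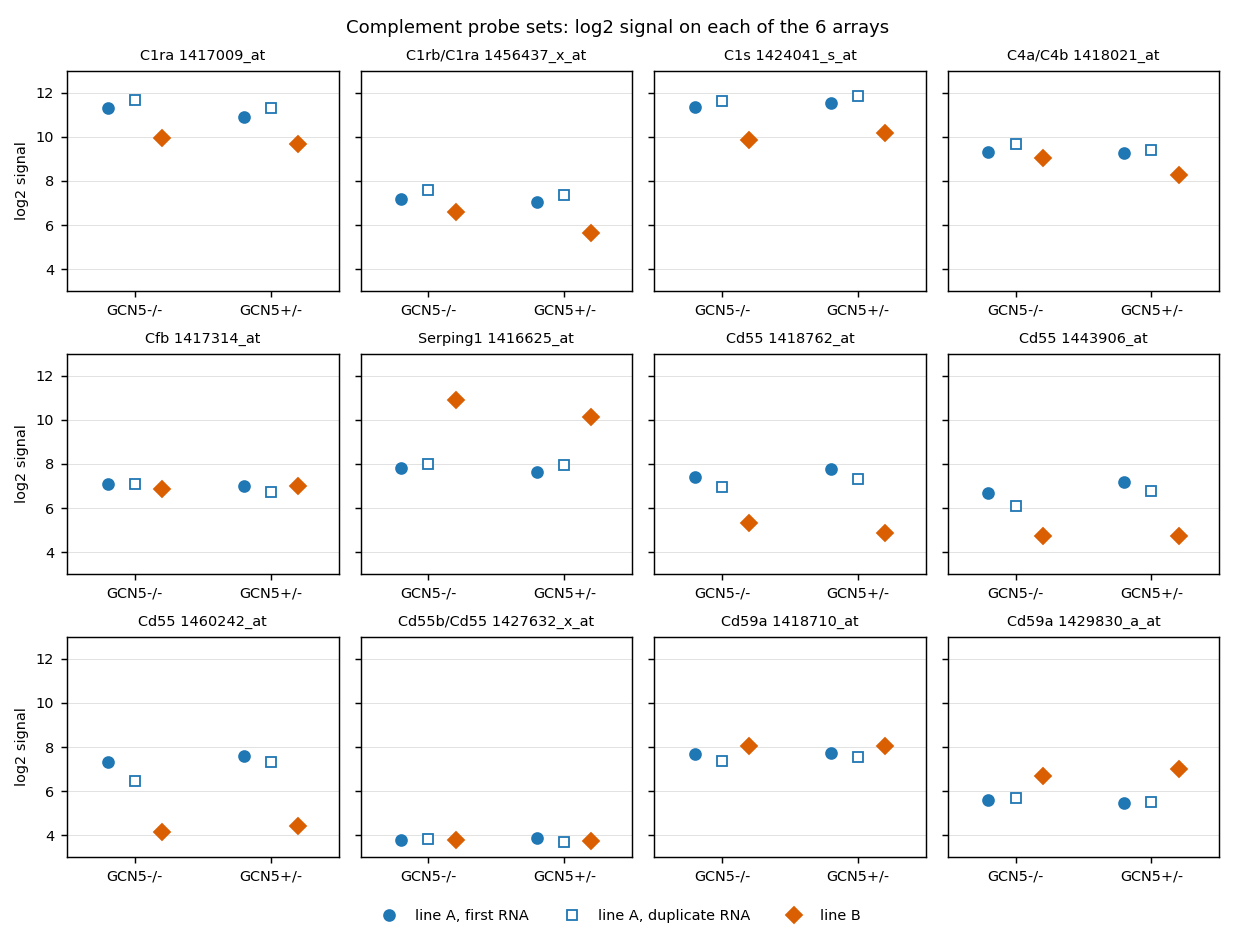
Log2 signal (y axis, all panels on the same scale) of the 12 complement probe sets on each of the 6 arrays, GCN5-/- left and GCN5+/- right in each panel; circles and squares are the duplicate RNAs of line A and diamonds are line B, 1 point per array with no averaging. The line B diamonds lie below line A for C1ra, C1s and 3 Cd55 probe sets and above it for Serping1, while matched GCN5-/- and GCN5+/- points lie within 1 log2 unit of each other.

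Serping1, the serpin that inactivates both C1r and C1s, ran against its targets. It had log2 signals of 7.81, 7.99 and 10.92 in GCN5-/- arrays A1, A2 and B, against 7.63, 7.96 and 10.12 in GCN5+/- arrays. Both line B arrays stood more than 2 log2 units above all 4 line A arrays, which spanned 7.63 to 7.99. The line difference was 2.67 ± 0.17 (SE, 95% interval 2.27 to 3.07, limma adjusted p = 3.45e-05), 6.38-fold higher in line B. The pairs by genotype were 0.18 and 0.03 in line A and 0.80 in line B, and the fitted difference was 0.34 ± 0.16 (SE, limma adjusted p = 0.258).

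C4 is the substrate of C1s, and its cleaved form joins C2 in the enzyme that cleaves C3. The probe set shared by C4a and C4b had log2 signals of 9.30, 9.67 and 9.02 in GCN5-/- arrays, against 9.25, 9.38 and 8.25 in GCN5+/- arrays. All 3 pairs had the GCN5-/- array higher, by 0.06, 0.29 and 0.77, with the widest gap in line B and a fitted difference of 0.37 ± 0.15 (SE, 95% interval 0.02 to 0.72, limma adjusted p = 0.187). Line B lay below line A by 0.77 (-0.77 ± 0.16, SE, limma adjusted p = 0.0119), and that call was lost without the GCN5+/- array B (-0.47, limma adjusted p = 0.168).

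Cfb, the alternative-pathway protease that binds C3b, was the flattest of the genes measured above the filter. Its log2 signals were 7.07, 7.07 and 6.87 in GCN5-/- arrays, against 7.02, 6.73 and 7.01 in GCN5+/- arrays, all near the filter level of 6.80. The genotype difference was 0.08 ± 0.12 (SE, 95% interval -0.18 to 0.35, limma adjusted p = 0.724) and the line difference -0.04 ± 0.12 (SE, 95% interval -0.32 to 0.25, limma adjusted p = 0.873). The arrays of the groups overlapped in both comparisons.

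Cd55, the decay-accelerating factor, had 3 probe sets of its own, all with a mean below the level filter, and values for them come from a fit over all 45037 probe sets. On 1460242_at the log2 signals were 7.34, 6.45 and 4.14 in GCN5-/- arrays, against 7.61, 7.30 and 4.43 in GCN5+/- arrays. On 1418762_at they were 7.40, 6.97 and 5.34 in GCN5-/- arrays, against 7.77, 7.32 and 4.87 in GCN5+/- arrays, and on 1443906_at they were 6.70, 6.11 and 4.75, against 7.17, 6.79 and 4.74. On all 3 probe sets both line B arrays lay below every line A array. The line differences were -2.89 ± 0.22, -2.26 ± 0.21 and -1.95 ± 0.20 (SE, limma adjusted p = 5.57e-05, 0.000189 and 0.000293), the largest of them 7.4-fold. Signals this low leave the size of the folds uncertain.

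The Cd55 genotype differences did not pass the test. In line A both pairs had the GCN5-/- array lower on all 3 probe sets of Cd55's own. The differences were -0.27 and -0.86 on 1460242_at, -0.36 and -0.35 on 1418762_at and -0.48 and -0.67 on 1443906_at. These pairs are duplicate RNAs of the same line A cultures and are not independent. In line B the pairs were -0.29, 0.47 and 0.01 in the same order of probe sets. The fits gave -0.47 ± 0.21, -0.08 ± 0.20 and -0.38 ± 0.18 (SE, limma adjusted p = 0.278, 0.904 and 0.341). The probe set shared with Cd55b lay between 3.70 and 3.89 on all 6 arrays, near the bottom of the scale, and showed no difference by line (-0.04 ± 0.08, SE, limma adjusted p = 0.82) or genotype (0.03 ± 0.08, SE, limma adjusted p = 0.928) that passed the test.

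Cd59a, which guards cells against the membrane attack complex, was higher in line B. Its probe set 1418710_at had log2 signals of 7.70, 7.38 and 8.05 in GCN5-/- arrays, against 7.72, 7.54 and 8.03 in GCN5+/- arrays. The dimmer probe set 1429830_a_at had 5.58, 5.70 and 6.68 in GCN5-/- arrays, against 5.45, 5.53 and 7.02 in GCN5+/- arrays. Line B lay above line A by 0.45 ± 0.12 and 1.29 ± 0.12 (SE, limma adjusted p = 0.0314 and 0.000231), without overlap on either. The smaller difference was lost with any of 4 arrays left out, at adjusted p = 0.0719 without GCN5-/- A2, 0.216 without GCN5-/- B, 0.0655 without GCN5+/- A2 and 0.143 without GCN5+/- B. By genotype the fits gave -0.05 ± 0.12 and -0.01 ± 0.12 (SE, limma adjusted p = 0.842 and 0.975).

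**Figure D2:**
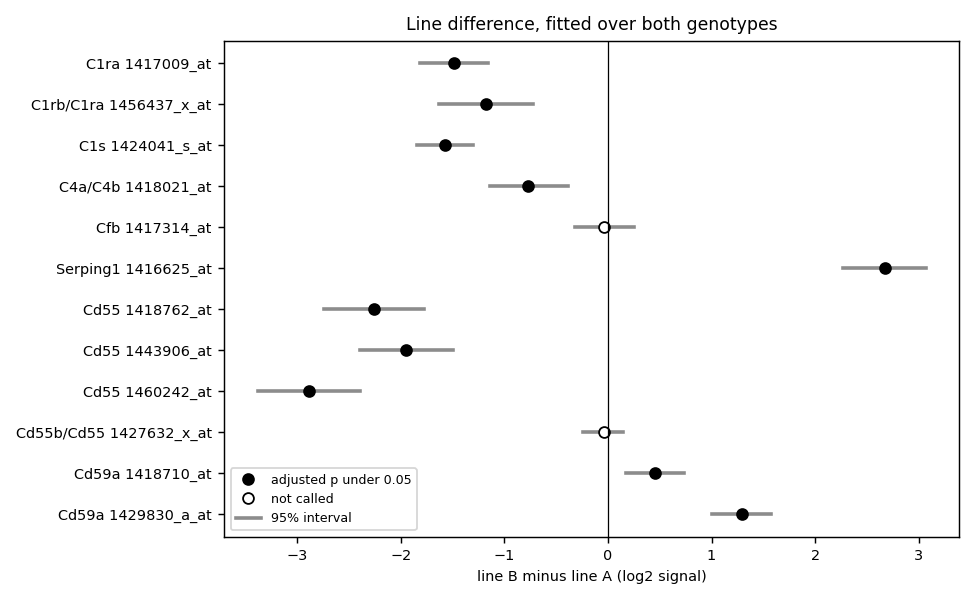
Line B minus line A (x axis, log2 signal) for the 12 complement probe sets, fitted over both genotypes, with bars for 95% intervals and filled points for adjusted p under 0.05. Serping1 and Cd59a lie right of 0, the C1 proteases, C4 and 3 Cd55 probe sets left of it, and Cfb and the probe set shared with Cd55b lie on it.

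By count, 8 of the 9 probe sets of single members passed the line test, 3 higher and 5 lower in line B, and 2 of the 3 shared probe sets passed, both lower. Line differences were common in these cells: 23.1% of all probe sets past the level filter were called, and 14.1% when all probe sets were tested without it. Only 5 of the 9 single-member probe sets and 2 of the 3 shared ones passed the level filter. By genotype 0 of 12 were called by limma, where the shares called were 8.51% past the level filter and 4.47% without it; at an unadjusted p under 0.05 there were 2 single-member probe sets (C1ra and Cd55 1460242_at) and 2 shared ones (C1rb/C1ra and C4a/C4b). The median genotype difference was -0.05 over the 9 single-member probe sets, against 0.01 over all named genes tested.

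**Figure D3:**
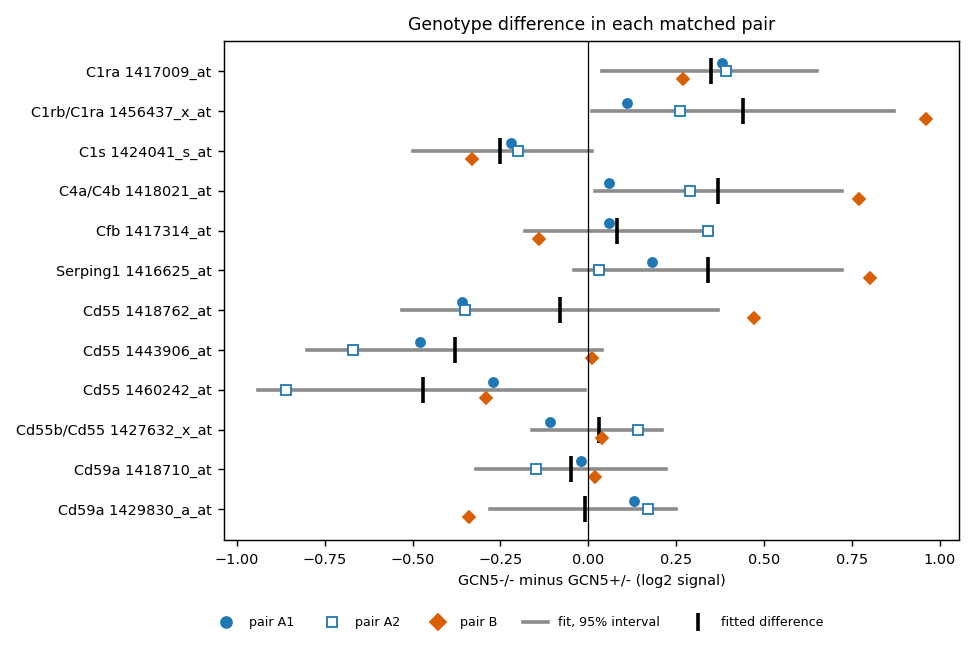
GCN5-/- minus GCN5+/- (x axis, log2 signal) for the 12 complement probe sets: symbols are the matched pairs A1, A2 and B, black ticks the fitted difference and bars its 95% interval. All 3 pairs lie right of 0 for C1ra, C1rb/C1ra, C4a/C4b and Serping1 and left of 0 for C1s and Cd55 1460242_at, and the line B pair stands apart for Serping1 at 0.80 and for C1rb/C1ra at 0.96; none of the differences passed the adjusted test.

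Whether the genotype difference itself differed between the lines was tested with a product term, whose residual spread comes only from the line A duplicates. None of the 12 probe sets passed by limma (3 single-member and 1 shared had an unadjusted p under 0.05), where 0.0481% of probe sets past the level filter and 0.06% of all probe sets did. The largest of these differences, line B minus line A, were 0.83 ± 0.34 for Cd55 on 1418762_at, 0.77 ± 0.31 for C1rb/C1ra and 0.70 ± 0.27 for Serping1 (SE, limma adjusted p = 0.739, 0.612 and 0.585). Within line A alone, 0 of the 12 were called by genotype, with 2 at an unadjusted p under 0.05, C1ra and Cd55 1443906_at.

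The rest of the pathway was read from gene lists, with the brightest probe set of each gene past the filter. By genotype 9.86% of the 12626 named genes were called, and by line 26.7%. Of 19 other initiating and early components 6 could be tested and 0 passed by genotype in limma, with 0 at an unadjusted p under 0.05; the C1q chains C1qa, C1qb and C1qc lay below the filter. By line, C2, the partner of C4 in the C3-cleaving enzyme, was higher in line B (0.54 ± 0.11, SE, limma adjusted p = 0.0114, lost without either line B array), and Masp1, a protease of the lectin pathway, was lower (-0.45 ± 0.08, SE, limma adjusted p = 0.00471). Of 7 terminal components 2 could be tested, C6 and C8g, and neither reached an unadjusted p under 0.05 in either comparison.

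Among the other regulators 7 of 15 could be tested, and 0 passed by genotype in limma, with 1 at an unadjusted p under 0.05. C4bp, the soluble inhibitor that binds C4b, had 9.39, 9.16 and 5.62 in GCN5-/- arrays, against 8.94, 8.87 and 5.86 in GCN5+/- arrays, and was lower in line B by -3.35 ± 0.15 (SE, limma adjusted p = 5.17e-06). Both line B values lie below the filter level of 6.80, so the size of the difference is uncertain. In the RefSeq order C4bp lies on chromosome 1 just past Cd55 and Zp3r, and Zp3r differed by 0.19 ± 0.09 (SE, limma adjusted p = 0.204). Zp3r was picked for its position after values were seen. It lay between 5.03 and 5.47 on all arrays, below the filter level, and signals this low limit what difference it can show. Clu, which binds terminal complexes, was higher in line B (1.75 ± 0.41, SE, limma adjusted p = 0.0171), a call lost without the GCN5-/- array B (1.12, limma adjusted p = 0.191) or the GCN5+/- array A1 (limma adjusted p = 0.0507). Cd109, a membrane protein of the C3 and C4 family, was higher in line B by 0.74 ± 0.14 (SE, limma adjusted p = 0.007), lost without the GCN5-/- array B.

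Of all named genes tested, 9.86% were called by genotype. The other lists of the pathway had no genotype calls, but with 6, 2 and 7 genes tested that is no contrast to this share. Among complement receptors 3 of the 5 tested rose in GCN5-/- cells and none fell, with a median of 0.73. With line as a random block, whose correlation is estimated, none of the 3 passed (limma adjusted p = 0.103 for C3ar1, 0.236 for Cd93 and 0.335 for Itgb2). C3ar1, the receptor for the C3a fragment, had log2 signals of 8.72, 8.79 and 9.64 in GCN5-/- arrays, against 7.61, 7.73 and 8.94 in GCN5+/- arrays. Each pair had the GCN5-/- array higher, and the fitted rise was 0.96 ± 0.11 (SE, limma adjusted p = 0.00301). Cd93, first described as a C1q receptor, had 9.42, 9.61 and 8.27 in GCN5-/- arrays, against 8.84, 8.81 and 6.83 in GCN5+/- arrays, a rise of 0.94 ± 0.16 (SE, limma adjusted p = 0.0121) that was lost without the GCN5-/- array A2 (limma adjusted p = 0.0546). Itgb2, the shared beta chain of complement receptors 3 and 4, had 7.15, 7.73 and 9.16 in GCN5-/- arrays, against 6.82, 6.79 and 8.25 in GCN5+/- arrays. Its rise of 0.73 ± 0.15 (SE, limma adjusted p = 0.0269) was lost with most single arrays left out, at up to 0.104. By line C3ar1 and Itgb2 were higher in line B (1.08 ± 0.12 and 1.58 ± 0.16, SE, limma adjusted p = 0.000572 and 0.000382), and Cd93 was lower (-1.62 ± 0.17, SE, limma adjusted p = 0.000387).

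Leukocytes carry these receptors too. Of 10 macrophage and leukocyte markers 6 lay above the level filter. The log2 of the summed unlogged signals of all 10 was 11.26 to 11.88 in GCN5-/- arrays and 11.02 to 11.43 in GCN5+/- arrays. It was 11.02 to 11.26 in line B and 11.39 to 11.88 in line A. Ptprc, Itgam, Adgre1 and Tyrobp lay below the filter on average, and Cd68, Csf1r, Cd14, Lyz2, Cd53 and Fcgr1 lay above it. By genotype 1 of the markers was called, and by line 1 was higher and 2 were lower in line B. Among the markers above the filter, the Cd53 pairs (A1, A2, B) were 0.88, 0.75 and 0.94 higher in GCN5-/- arrays. Csf1r (0.48, 0.48 and 0.12), Cd68 (0.56, 0.16 and 0.43) and Fcgr1 (0.18, 0.1 and 0.02) were also higher in every pair. Cd14 (0.16, 0.07 and -0.01) and Lyz2 (0.0, 0.01 and -0.15) were not. Among those below it, the Adgre1 pairs were -0.11, -0.01 and -0.09 and the Ptprc pairs were 0.12, 0.02 and 0.05. Itgam and Tyrobp had pairs in either direction. Adgre1 lay between 6.03 and 6.36 on all arrays, and signals this low limit what difference it can show. The part of such cells in the receptor differences was not tested.

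Acute-phase genes, which are induced with complement in inflammation, were read alongside. Of 14 tested, 3 rose in GCN5-/- cells and none fell (median 0.21), while by line 1 was higher and 9 were lower in line B (median -0.62, against 0.01 over all named genes). Over all named genes 9.86% were called by genotype and 26.7% by line. Il6, the cytokine that drives the response in liver, had 11.34, 11.35 and 8.25 in GCN5-/- arrays, against 10.21, 10.00 and 5.86 in GCN5+/- arrays. It rose by 1.62 ± 0.21 (SE, limma adjusted p = 0.00484) and was lower in line B by -3.67 ± 0.23 (SE, limma adjusted p = 2.58e-05), with GCN5+/- B below the filter level of 6.80. Lcn2, which binds bacterial siderophores, had 7.86, 9.44 and 8.96 in GCN5-/- arrays, against 6.16, 6.81 and 6.01 in GCN5+/- arrays, without overlap, and rose by 2.43 ± 0.38 (SE, limma adjusted p = 0.00963, and 0.0539 without the GCN5+/- array A1). Lcn2 passed the level filter through the GCN5-/- arrays, since GCN5+/- averaged 6.33, below 6.80, so the size of its rise is uncertain. Ptx3, a long pentraxin that binds C1q, had 13.73, 13.59 and 11.88 in GCN5-/- arrays, against 13.33, 13.28 and 10.66 in GCN5+/- arrays. It rose by 0.64 ± 0.15 (SE, limma adjusted p = 0.0407; 0.0575 with the array name as a block, 0.0913 with duplicates averaged and up to 0.0863 with an array left out). The Ptx3 difference was 0.36 without either line B array. Ptx3 was lower in line B by -2.21 ± 0.16 (SE, limma adjusted p = 6.35e-05), and Cp, the copper carrier, was higher by 0.49 ± 0.15 (SE, limma adjusted p = 0.0459, up to 0.466 with an array left out). With no line term in the fit, none of the 6 genotype calls among receptors and acute-phase genes passed, and with line as a random block only Lcn2 did (limma adjusted p = 0.0354).

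**Figure D4:**
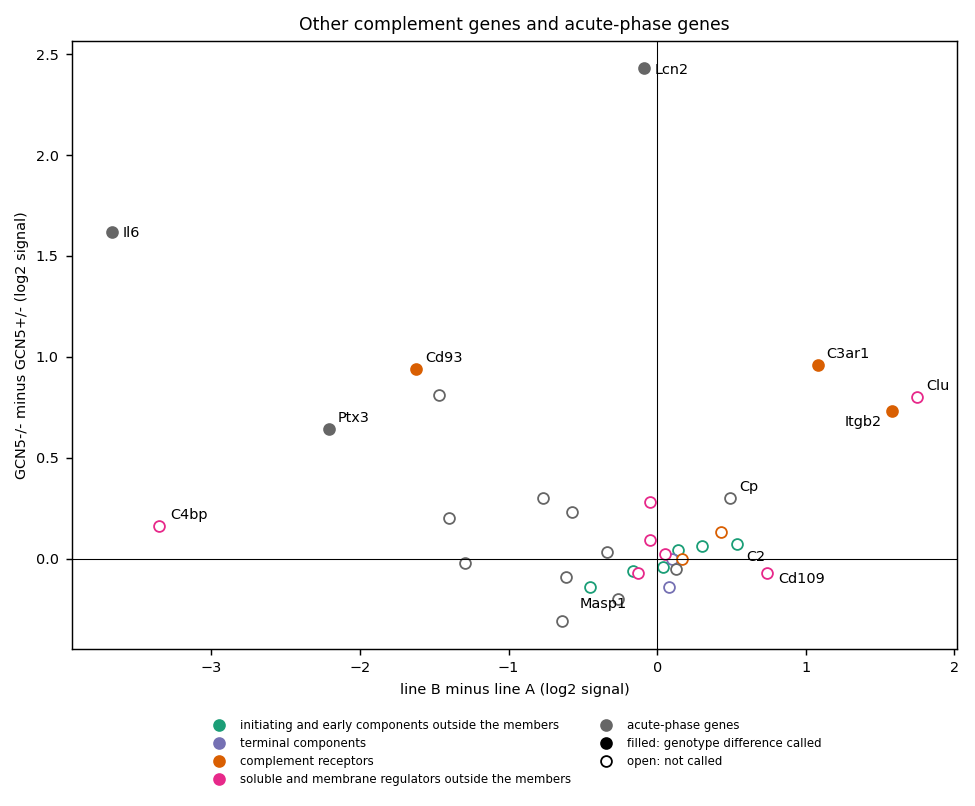
Genotype difference (y axis, GCN5-/- minus GCN5+/-) against line difference (x axis, line B minus line A), both in log2 signal, for the tested complement genes outside the 8 members and the acute-phase genes; 1 point per gene, coloured by list, filled where the genotype difference was called. Filled points are C3ar1, Cd93, Itgb2, Il6, Lcn2 and Ptx3, all above 0, and C4bp and Il6 lie farthest left at -3.35 and -3.67.

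The single-member probe set with the largest fitted difference in both comparisons was Cd55 1460242_at, whose mean is below the level filter and whose line B signals of 4.14 and 4.43 leave the size of its differences uncertain. Among probe sets past the filter the largest were Serping1 by line (2.67) and C1rb/C1ra by genotype (0.44). Among 23027 probe sets with 1 symbol, those most like Cd55 1460242_at in level over the 6 arrays were Sim2 (Pearson r = 0.9964), Man1a (0.9958) and Flot1 (0.9953). With 6 arrays in a pair of lines, 480 probe sets had an r over 0.95, and the points share their line, so this describes the line step and little else. Sim2 had log2 signals of 8.10, 7.85 and 7.21 in GCN5-/- arrays, against 8.13, 7.99 and 7.31 in GCN5+/- arrays.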

How the data were processed

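The authors deposited log2 signals per probe set for 6 arrays, a scale inferred from their range. Per the submitters' processing notes, MAS5 is named for 6 samples and Partek for 1; the normalization used is not given in the sources used here. A scaling that equalizes arrays removes changes shared by most genes. The number of arrays limits the precision.

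Of the 45101 probe sets, 64 controls were removed. Probe sets were named from the platform annotation (34945 with 1 symbol, 932 with several, 9160 unnamed here), and 34741 Entrez identifiers matched the RefSeq table of GRCm38.p6. Tests used limma 3.58.1 in R 4.3.3 (lmFit, eBayes with trend) with genotype and line as terms, on the 27022 probe sets whose mean was at or above the 40th percentile (6.80). Benjamini-Hochberg adjustment ran over all of them, and an adjusted p under 0.05 was called. Members under the filter were read from a fit over all 45037. The fits were tested on simulated data. Errors are SE of the fit.

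Members and gene lists were chosen with earlier results of these data known. Other genes named are up to 4 called per direction and list by genotype and up to 2 by line, and the 3 most like the members with the largest differences. Array names pair the groups by line: deviations from group means correlated at 0.637 (A1), 0.657 (A2) and 0.804 (B), against 0.348 and 0.43 when A1 and A2 were crossed. Alternatives changed the line term, the block, the filter, the variance model and the normalization, averaged duplicates or left out arrays.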

Additional observations from a re-analysis of the deposited data

How the results depend on the processing

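By genotype 2299 probe sets were called. The count was 709 with duplicates averaged, 532 with line as a random block, 69 with no line term, and 645 to 2309 with 1 array left out. Of the member probe sets 0 were called by genotype, and 1 (C1ra) with the replicate block, which called 2627 of the 27022 tested probe sets. By line 6246 were called, and 3025 to 5379 with 1 array left out; 10 member probe sets were called, but 4 at the 60th percentile filter, which tests fewer of them. The interaction gave 13, against 23 with arrays centred on their median, 4 at the 60th percentile, 27 with no filter, 0 with no trend (1645 at an unadjusted p under 0.05), 4 after quantile normalization, and 55 to 104 with a line A array left out; without a line B array it could not be fitted.

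Signs turned only for differences that were not called. With 1 array left out, genotype differences ranged from -0.03 to 0.20 for Cfb, -0.13 to 0.05 for Cd59a 1418710_at, -0.09 to 0.15 for Cd59a 1429830_a_at (0.15 within line A), -0.36 to 0.12 for Cd55 1418762_at (0.06 with duplicates averaged) and -0.02 to 0.08 for Cd55b/Cd55. The Cfb line difference ranged from -0.21 to 0.13. Interactions ranged from -0.31 to 0.07 for C1ra, -0.26 to 0.03 for C1s, -0.05 to 0.26 for Cd59a 1418710_at, -0.06 to 0.12 for Cd55b/Cd55 and -0.17 to 0.72 for Cd55 1460242_at. The cause of these changes was not tested. Of 207 alternative values of member genotype differences, 196 kept direction and call, as did 151 of 159 by line and 115 of 123 for the interaction. The replicate block changed no other call among the members. Signals near the floor limit what Cd55 and its shared probe set can show.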

Other observations

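Genes beside the members in the RefSeq order of GRCm38.p6 were read after values had been seen, with no claim about shared control. Ube2l6, which carries the ubiquitin-like protein Isg15 and lies next to Serping1 on chromosome 2, had log2 signals of 7.17, 7.69 and 7.01 in GCN5-/- arrays A1, A2 and B, against 6.27, 6.24 and 6.52 in GCN5+/- arrays. It was higher in GCN5-/- cells by 0.95 (limma adjusted p = 0.0174) and differed by -0.08 ± 0.19 between the lines (SE, limma adjusted p = 0.809), whereas Serping1 itself passed only the line test; the difference between the 2 genes was not tested. Ube2l6 passed the level filter through the GCN5-/- arrays, since GCN5+/- averaged 6.34, below 6.80, so the size of its difference is uncertain. Tnxb, a tenascin gene next to C4b on chromosome 17, was higher in line B by 1.09 ± 0.26 (SE, limma adjusted p = 0.0198). Its line B arrays read 8.36 (GCN5-/-) and 6.98 (GCN5+/-), and its line A arrays lay between 6.46 and 6.71. Tnxb passed the level filter through line B, since line A averaged 6.58, below 6.80, so the size of its difference is uncertain. Cfb lies between Nelfe and C2. Nelfe differed by -0.14 ± 0.08 between the lines (SE, limma adjusted p = 0.263). C2 was higher in line B by 0.54 ± 0.11 (SE, limma adjusted p = 0.0114), a call lost without either line B array.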
